A study of Mus musculus with 7 samples.

Results

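LAT-deficient DN3 thymocytes sorted for intermediate γδ TCR (Lat-KO DN3 γδint) were compared with LAT-deficient DN3 thymocytes sorted as negative for it (Lat-KO DN3 γδ−). Thymocyte barcodes were those with at least 1000 detected genes, at most 10% mitochondrial UMIs (unique molecular identifiers, which count transcript molecules) and at most 1 UMI of the B cell genes Cd79a, Cd79b and Ms4a1 together. They numbered 4928 in γδint and 6298 in γδ−, thus 11226 of the 16966 barcodes of both libraries and of the 90016 barcodes of the series. Of the 7 libraries of the series 5 were wild-type (WT) and 2 LAT-deficient, and each group was a single library. No difference between groups could therefore be tested, and every 95% interval below covers counting error only.

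Both Lat-KO groups came from C57BL/6 mice that lacked LAT in all cells and also carried the TCRd-H2BEGFP allele, in which a histone-GFP fusion reports Trdc, the gene of the TCR δ constant region. Thymi of several mice were pooled. The γδint cells were sorted as NK1.1-negative, CD25+, CD44low and CD24+ cells with surface CD3 and TCRδ. The γδ− cells were sorted as CD4- and CD8-negative, CD25+ and CD44low cells without surface CD3 or TCRδ. Neither sort was split by CD71, so each could hold cells of the DN3a and the DN3b type. The WT libraries that serve as context came from C57BL/6 mice of 6 to 8 weeks, without the deletion or the reporter allele. Each library also held 500 spiked B cells from spleen, which went through the same droplet run and served to show differences between the libraries that do not come from the thymocytes.

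DN3 thymocytes rearrange their Tcrb, Tcrg and Tcrd genes and stop dividing until a pre-TCR or a γδ TCR signals. LAT is the membrane adaptor that links the receptor and ZAP-70 to the phospholipase Cγ1 and ERK branches, so cells without it can assemble a receptor but pass on little of its signal. Cells that receive the signal leave the DN3a state, re-enter the cycle and, on the γδ side, induce ERK-dependent genes such as Id3 and Etv5.

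The targeted gene was rare in both libraries. Lat stood at 0.891 CPM (UMI counts scaled to a common library total, 33 UMIs) in γδint and at 4.82 CPM (240 UMIs) in γδ−, against 357 to 643 CPM in the WT libraries. The 240 UMIs lay in 232 barcodes, with at most 3 in any. Thymocyte UMIs summed to 37034884 in γδint and 49842956 in γδ−, with medians of 5878 and 6999.5 per barcode. Every thymocyte barcode held at least 5 UMIs of 10 T cell markers. The 4 markers of CD4+CD8+ αβ thymocytes summed to 4.35 CPM in γδint and 0.903 CPM in γδ−, the 5 erythroid markers to 0.378 and 1.52 CPM, the 7 myeloid markers to 142 and 192 CPM, the 5 plasmacytoid markers to 531 and 622 CPM and the 5 NK markers to 697 and 459 CPM. The NK sum came from Gzma and Nkg7 alone, and the defining markers Klrb1c, Ncr1 and Klrd1 were at 0 in both libraries. The 10 B cell markers summed to 193 CPM in γδint and 189 CPM in γδ−. At least 5 of their UMIs were found in 5.66% and 4.37% of thymocyte barcodes. The 2 libraries shared 6 thymocyte barcodes.

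Many of the genes with a higher level in γδint were genes of the cell cycle. Of 9332 genes with a mean of at least 5 CPM, 413 were at least 2-fold higher in γδint (4.43% of those tested) and 316 at least 2-fold lower (3.39%), around a median log2 ratio of 0.18. Of 43 replication genes 31 were among the higher ones and 0 among the lower, and of 54 mitosis genes 42 and 0. The median log2 ratio was 1.45 for the replication genes and 1.69 for the mitosis genes, and 43 and 53 of them were above 0. The plot of all genes against their level shows both lists above the main cloud.

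**Figure D1:**
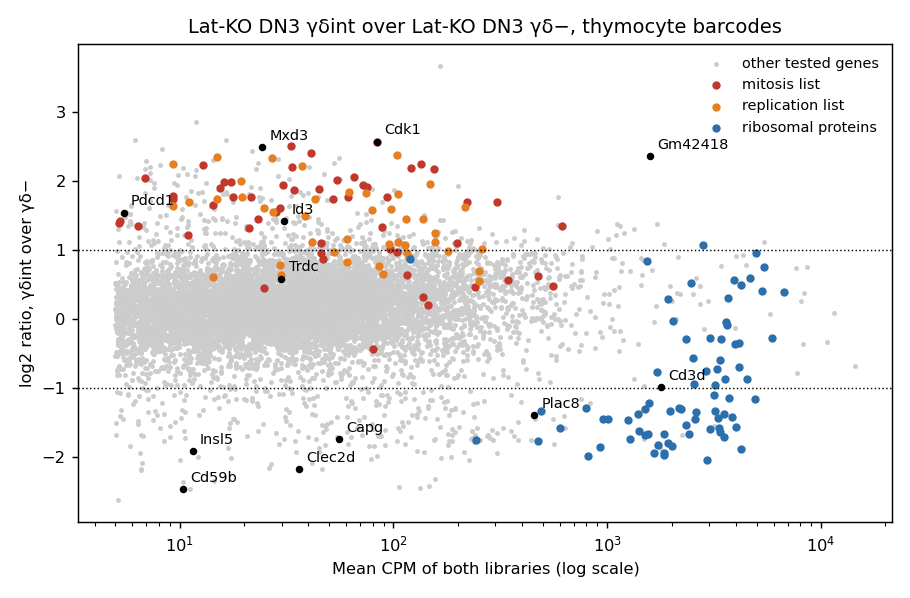
Each point is 1 of 9332 tested genes, with the mean CPM of both libraries on a log axis and the log2 ratio of γδint over γδ− (both Lat-KO) on the vertical axis. Mitosis genes (red) and replication genes (orange) lie mostly above the upper dotted 2-fold line, and most ribosomal-protein genes (blue) lie below the lower one, while black points are genes named in the text.

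Cdk1, the kinase that drives entry into mitosis, led the mitosis genes. It stood at 143 CPM (139 to 147, exact Poisson 95% interval) in γδint and at 24.2 CPM (22.8 to 25.6) in γδ−, a log2 ratio of 2.57 (2.48 to 2.66, exact conditional binomial 95% interval). Aurkb, a kinase of chromosome segregation, was at 56.4 and 10.0 CPM and Kif11, a spindle motor, at 69.2 and 13.1 CPM. Mki67, the proliferation antigen Ki-67, was at 223 CPM in γδint and 47.3 CPM in γδ−. Each of these genes was over 4-fold higher in γδint. The lowest member was Cks2, with a log2 ratio of -0.44 (-0.51 to -0.37) that became 0.24 once a trend with transcript length was taken out, and it was -1.01 in non-cycling and -1.51 in cycling barcodes.

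Promoters of the mitosis genes often carry a cell cycle homology region (CHR, searched as TTTGAA on either strand) near a CCAAT box (CCAAT on either strand), the arrangement through which repressor and activator complexes time late cycle genes. In the 250 bases before the start of transcription, RefSeq (GRCm38.p6) gave windows for 47 of the 54 mitosis genes. A CHR was in 40.4% of their 52 windows and in 15.99% of all 32851 windows, a CCAAT box in 75.0% and 33.8%, and both in 34.6% and 5.55%. The 3 mitosis genes of highest ratio with both motifs in a single window are printed, 5′ to 3′ on the strand of the gene, with both motifs in capitals. They lie at chr10:69352913-69353162 (Cdk1, minus strand), chr19:37376132-37376381 (Kif11, plus strand) and chr7:135716380-135716629 (Mki67, minus strand).
Cdk1: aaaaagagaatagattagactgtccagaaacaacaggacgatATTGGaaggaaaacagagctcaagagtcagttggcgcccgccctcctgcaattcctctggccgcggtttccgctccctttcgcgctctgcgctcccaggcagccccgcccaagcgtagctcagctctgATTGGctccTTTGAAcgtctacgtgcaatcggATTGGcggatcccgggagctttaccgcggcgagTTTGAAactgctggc
Kif11: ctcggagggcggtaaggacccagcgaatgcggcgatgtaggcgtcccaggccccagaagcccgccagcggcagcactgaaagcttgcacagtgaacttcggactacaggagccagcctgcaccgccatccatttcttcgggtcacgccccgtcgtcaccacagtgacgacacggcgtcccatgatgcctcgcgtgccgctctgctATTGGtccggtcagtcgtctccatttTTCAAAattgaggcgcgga
Mki67: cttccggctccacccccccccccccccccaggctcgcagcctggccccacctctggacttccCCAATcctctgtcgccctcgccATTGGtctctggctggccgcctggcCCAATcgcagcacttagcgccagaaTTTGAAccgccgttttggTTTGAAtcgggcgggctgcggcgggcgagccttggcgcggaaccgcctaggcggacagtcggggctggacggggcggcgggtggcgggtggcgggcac
The window of Cdk1 held 2 CHR and 3 CCAAT matches, that of Kif11 1 and 1, and that of Mki67 2 and 3. The CHR nearest the start lay 15 bases before it in Cdk1 and 19 in Kif11, and 98 in Mki67. A match describes letters in a window and not a bound site.

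Genes that act before mitosis went the same way. Ccne1, the cyclin of the G1 to S step, was at 14.04 CPM in γδint and 2.55 CPM in γδ−, a log2 ratio of 2.46 (2.18 to 2.75). Mxd3, a MAX partner of the MYC network that is expressed in S phase, had 2.49 (2.32 to 2.66), and Rrm2, a subunit of ribonucleotide reductase, 2.38 (2.30 to 2.46). E2f1 and E2f2, transcription factors of the G1 to S step, had 1.81 (1.65 to 1.96) and 1.48 (1.37 to 1.60). Of 16 tested G1 cyclins, kinases and inhibitors 6 were at least 2-fold higher and 0 lower, with a median of 0.70. The D cyclins were not among them, since Ccnd2 was at 329 and 349 CPM and Ccnd3 at 160 and 163 CPM. Cdkn1a, the p21 inhibitor, was at 78.0 CPM in γδint and 112 CPM in γδ−.

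A sum over a library cannot tell more cycling cells from more cycle RNA per cell, so single barcodes were scored. Each was thinned to 4000 UMIs, which left out 452 barcodes of γδint and 213 of γδ−, and the UMIs of 12 cycle genes were counted (Mki67, Top2a, Cdk1, Ccna2, Ccnb1, Ccnb2, Birc5, Nusap1, Ube2c, Rrm2, Pclaf and Tk1). At least 3 such UMIs, here called cycling, were found in 27.0% of γδint barcodes (25.7 to 28.4, exact Clopper-Pearson 95% interval, 1210 of 4476) and in 5.64% of γδ− barcodes (5.07 to 6.25, 343 of 6085). The share with none, here called non-cycling, was 35.5% (34.1 to 36.9) and 75.6% (74.5 to 76.7). Of the 72 and 131 spiked B barcodes with at most 2 T marker UMIs, only 12 in γδint and 34 in γδ− reached 4000 UMIs. Of these, 0 of 12 and 0 of 34 were cycling, which allows up to 26.5% and 10.3%, and 3 and 4 held 1 or 2 cycle UMIs.

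**Figure D2:**
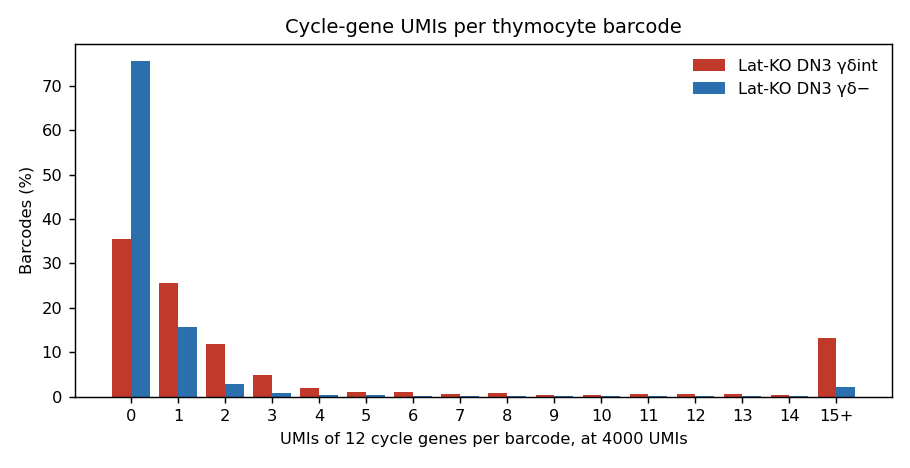
Bars give the percent of thymocyte barcodes of each Lat-KO library by the number of UMIs of 12 cycle genes at 4000 UMIs per barcode, with 15 or more pooled at the right. The pooled bin of 15 or more UMIs held 13.1% of γδint and 2.28% of γδ− barcodes, and 0 UMIs were found in 35.5% and 75.6%.

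Barcodes with 15 or more cycle UMIs made up 13.1% of γδint and 2.28% of γδ−, while the class at exactly 3 UMIs, at the edge of the call, held 4.92% and 0.904%. Barcodes with 1 or 2 cycle UMIs made up 37.5% of γδint and 18.8% of γδ−. Since some B barcodes held as many, and the source of those UMIs was not tested, the middle class was not used. Cycling barcodes were deeper than non-cycling ones before thinning, with medians of 12495 and 5615.5 UMIs in γδint and of 16205 and 6897 in γδ−.

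Within the classes fewer genes were at least 2-fold higher. Among non-cycling barcodes 112 of 9274 genes were at least 2-fold higher (1.21%) and 298 lower (3.21%), and among cycling barcodes 91 of 9054 were higher (1.01%) and 321 lower (3.55%). Of the 413 higher genes 94 were also higher in non-cycling and 35 in cycling barcodes, with 23 in both. In non-cycling barcodes 203 of the 413 lay within 2-fold and 116 fell under the CPM limit. Of the 316 lower genes the corresponding counts were 279, 261 and 245. Only 34 replication and 31 mitosis genes reached the CPM limit in non-cycling barcodes, and their medians there were 0.80 and 0.50, against 1.11 and 1.32 for the same genes in all thymocyte barcodes. Over all 43 and 54 genes, those under the limit included, the non-cycling medians were 0.84 and 0.85. Genes such as Aurkb at 2.75 and Kif11 at 2.28 kept high ratios at low levels. In cycling barcodes the medians were 0.45 and 0.22. The median over all tested genes was 0.23 in each class. Genes of the score in these lists in part set the class values. Class sums used all UMIs of a barcode, not the thinned ones. Cdk1, a gene of the score, thus still had 58 and 48 UMIs in non-cycling barcodes, and its ratio there is no result.

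**Figure D3:**
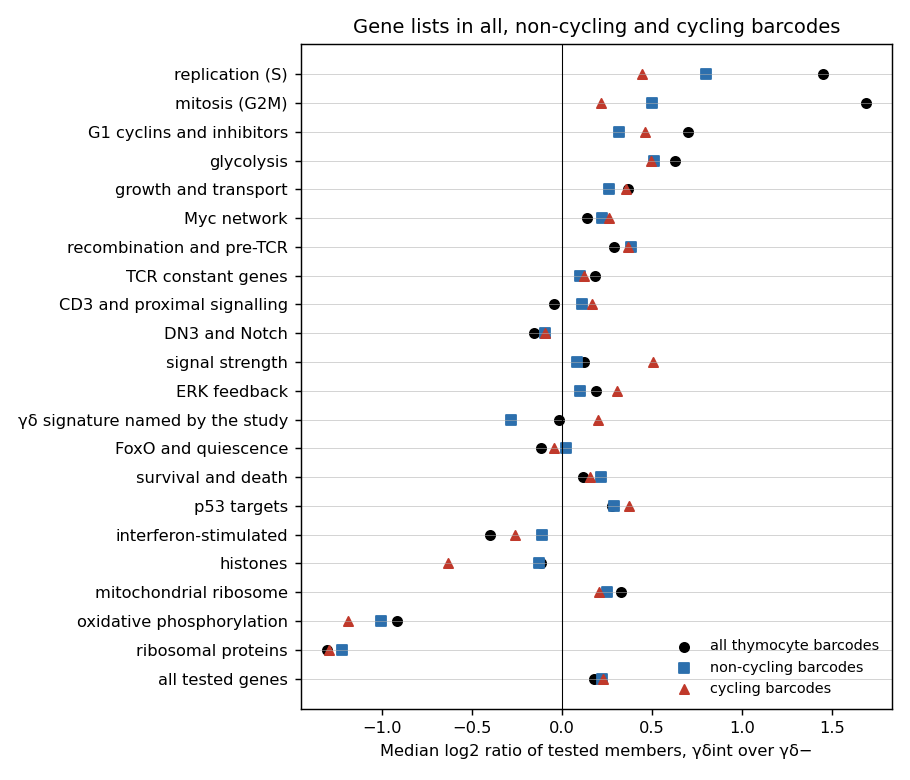
Points give the median log2 ratio of γδint over γδ− for the tested members of each gene list, in all thymocyte barcodes (black circles), non-cycling barcodes (blue squares) and cycling barcodes (red triangles). The replication and mitosis medians are 1.45 and 1.69 over 43 and 54 genes in all barcodes and 0.80 and 0.50 over the 34 and 31 genes tested in non-cycling barcodes, so the points do not cover the same members, while that of the ribosomal-protein genes is -1.30, -1.22 and -1.30.

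Of the 34 replication genes tested in non-cycling barcodes 12 were at least 2-fold higher and 0 lower. Pcna, the sliding clamp of DNA polymerase, had a log2 ratio of 1.09 (0.996 to 1.19) there, Mcm5, a subunit of the replicative helicase, 1.18 (1.05 to 1.31), and E2f1 1.502 (1.17 to 1.83). Cdc45, which loads with the helicase, had 1.87, and Chek1, a checkpoint kinase, 1.48. These genes were picked after their values were seen, and the B barcodes with few T markers moved the same way for Pcna, at 1.28 from 21 and 20 UMIs.

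The spiked B cells were set beside the thymocytes of the same libraries. Under the rule, a called gene was set apart where B barcodes (at least 5 UMIs of Cd79a, Cd79b and Ms4a1, 151 in γδint and 236 in γδ−) held at least 20 of its UMIs and moved the same way by at least 0.5 on the log2 scale. This set apart 240 of the 272 higher genes that could be measured in B barcodes and 259 of 274 lower ones, and 141 higher and 42 lower genes could not be measured. The B barcodes, however, held thymocyte RNA. Over 20 T marker UMIs were found in 29 of the 151 and 68 of the 236, and Cdk1 and Rrm2 had B log2 ratios of 4.86 and 3.67, above their own thymocyte ratios. With only B barcodes of at most 2 T marker UMIs (72 and 131, with 215767 and 498057 UMIs) 93 of 130 measurable higher genes and 195 of 212 lower genes were set apart. This set was not free of thymocyte RNA either, since its 10 T cell markers summed to 403 and 259 CPM, and Trbc1 and Trbc2 to 343 and 80.3 CPM (74 and 40 UMIs), a log2 ratio of 2.09 (1.52 to 2.69) beside 0.20 in thymocytes. For genes with a lower level in these B barcodes than in thymocytes, a higher B level in γδint could therefore not be told apart from more thymocyte RNA there. Both readings are given because they differ by over 1.5-fold for the higher genes. Over the 4348 genes measured in B barcodes with few T markers the median log2 ratio was 0.30. The limit of 0.5 thus lay nearer to this median for higher genes than for lower ones. The share of all measured genes past it was not counted. At a limit of 1 in these B barcodes 37 higher and 172 lower genes were set apart. Nearest to the limit under the rule were Plac8 at -0.49 and Cdc7 at 0.49, not set apart, and 2310001H17Rik at -0.50 and Mms22l at 0.50, set apart.

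**Figure D4:**
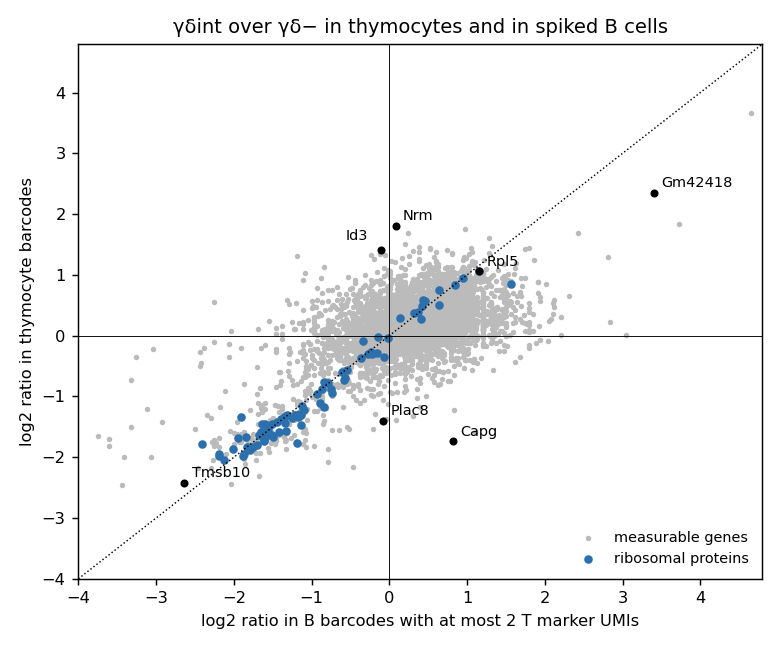
Each point is a tested gene with at least 20 UMIs in B barcodes of at most 2 T marker UMIs, with its log2 ratio of γδint over γδ− in those B barcodes (horizontal) and in thymocyte barcodes (vertical). Ribosomal-protein genes (blue) follow the dotted line of equal ratios, whereas Id3, Nrm, Plac8 and Capg lie far from it.

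Few cycle genes could be measured in B barcodes with few T markers. Of 8 called replication genes measured there 6 were set apart, and of 5 called mitosis genes 3. The B median was 1.12 over 12 replication genes and 0.25 over 11 mitosis genes, beside 0.30 over all genes measured there, and the part of the thymocyte RNA in these barcodes was not tested.

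Nrm, a protein of the nuclear envelope, had the highest ratio of the called genes that could be measured in both sets of B barcodes and were not set apart. It was at 25.9 and 7.38 CPM, a log2 ratio of 1.81 (1.64 to 1.99) with 0.08 (-0.72 to 0.84) in B barcodes with few T markers, and had 1.23 (0.80 to 1.66) in non-cycling barcodes.

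Among the genes set apart, the higher ones were led by AY036118 (305 and 24.1 CPM) and Gm42418 (2657 and 520 CPM), features that overlap ribosomal RNA sequence, with B ratios of 4.65 and 3.41 in the barcodes with few T markers. The lower ones were mostly short transcripts, with a median length of 937 bases among all called lower genes against 3351 among all tested. An example is Tmsb10, a small actin-binding protein (-2.42, B -2.64). Clec2d, a ligand of an NK receptor, was set apart too (-2.18, B -2.29), but its longest transcript has 1213 bases, above the median of the lower genes. Without the length trend its thymocyte ratio was -2.35. Of 80 tested ribosomal-protein genes 46 were at least 2-fold lower and 1, Rpl5, higher, and the 46 of these 47 that could be measured in B barcodes with few T markers were all set apart. Their share of UMIs was 15.98% in γδint and 25.7% in γδ− thymocytes, and 17.4% and 28.5% in the B barcodes with few T markers. Of 79 tested oxidative phosphorylation genes 39 were lower and 1, Ndufa9, higher. Among these called genes 39, with Ndufa9 included, could be measured in B barcodes with few T markers, and all 39 were set apart as well.

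Transcripts under 500 bases that are not ribosomal had a median log2 ratio of -1.72 in thymocytes (26 genes) and -1.53 in these B barcodes (13 genes), and those of 500 to 700 bases -1.29 (93 genes) and -1.38 (58 genes). At 700 to 1000 bases the medians were -0.38 and -0.25, and at 1000 to 2000 bases 0.34 and 0.35. The same order of lengths was found in non-cycling barcodes, at -1.71, -1.24, -0.36 and 0.37. Cd52 and Clec2d, which the study named as γδ TCR-induced genes, are both in the set-apart group, with Cd52 at 10.0 and 43.3 CPM and a B ratio of -1.86. Their lower level in γδint thymocytes therefore cannot be told apart from the difference between libraries.

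Id3 (chr4:136143497-136145755, plus strand, GRCm38), an inhibitor of E proteins that γδ TCR signals induce, stood apart from the B cells. It was at 44.8 CPM (42.7 to 47.0) in γδint and at 16.8 CPM (15.7 to 17.9) in γδ−, a log2 ratio of 1.42 (1.30 to 1.54). In B barcodes with few T markers it was -0.10, from 42 and 104 UMIs, and 0.46 in all B barcodes. The ratio was 0.79 (0.57 to 1.01) in non-cycling and 1.28 (1.03 to 1.54) in cycling barcodes. At 4000 UMIs an Id3 UMI was found in 11.9% of γδint barcodes (10.97 to 12.9) and 5.28% of γδ− barcodes (4.73 to 5.87), while B cells express the gene themselves. WT DN3b γδ+ cells held 350 CPM, WT DN3b γδ− cells 91.7 CPM and WT DN3a cells 36.9 CPM.

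Etv5 (chr16:22381309-22439719, minus strand), an ETS factor downstream of ERK, was rare in both libraries and rarest in γδ−. It had 110 UMIs in γδint (2.97 CPM, 2.44 to 3.58) and 3 in γδ− (0.0602 CPM, 0.0124 to 0.176), a log2 ratio of 5.62 (4.04 to 7.92). Both levels lay under the 5 CPM limit for testing. The 110 UMIs lay in 65 of 4928 barcodes, with 47 of them in the 10 highest. WT DN3b γδ+ cells held 71.0 CPM, WT DN3b γδ− cells 6.90 CPM and WT DN3a cells 1.26 CPM.

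Other genes of TCR signal strength varied in direction. Pdcd1, the inhibitory receptor PD-1, was at 8.15 and 2.81 CPM, a log2 ratio of 1.54 (1.24 to 1.84) that fell to 0.86 (0.27 to 1.42) in non-cycling barcodes. Egr1 was at 17.0 and 13.5 CPM, and Nr4a2 at 23.5 and 27.3 CPM. Cd69, an early activation antigen, was at 67.4 and 102 CPM, and Dusp5, an ERK phosphatase, at 36.3 and 62.7 CPM. Cd5, which scales with TCR signal strength, had 64 and 94 UMIs (1.73 and 1.89 CPM). Nab2, a co-repressor of EGR factors, had 45 and 15 UMIs, a log2 ratio of 2.01 (1.14 to 2.96) with 1.08 (-0.66 to 2.69) in non-cycling barcodes. Nr4a1, an immediate early gene of the TCR response, had 31 and 70 UMIs (-0.75, -1.41 to -0.12), and Nr4a3, of the same family, 144 and 289 (-0.58, -0.88 to -0.28). Egr2 with 15 and 9 UMIs and Egr3 with 16 and 22 were too sparse for a direction. Of 6 tested signal-strength genes 1 was at least 2-fold higher and 0 lower, and of 9 tested ERK feedback genes neither. Without the length trend Dusp5, an ERK feedback gene, was past 2-fold at -1.05. The study drew its γδ signature from its WT DN3b libraries, and the list used here holds the 14 genes named in its text. Of these 11 were tested, 1 was higher and 2 were lower, while Etv5, Cd5 and Itgb2 were under the CPM limit. Both lower genes, Cd52 and Clec2d, were set apart with the B cells. Over all tested genes 4.43% were higher and 3.39% lower, so the counts of these 3 short lists give no result about them.

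The tested constant genes of the receptor differed by less than 2-fold. Trdc and its reporter feature together were at 79.7 CPM in γδint (2952 UMIs) and 54.6 CPM in γδ− (2719 UMIs), a log2 ratio of 0.55 (0.47 to 0.62), with 0.77 (0.65 to 0.88) in non-cycling and 0.30 (0.11 to 0.49) in cycling barcodes. WT DN3a held 315 CPM and WT DN3b γδ+ 1015 CPM. The WT mice lacked the edited allele, and its part in the difference between Lat-KO and WT counts of Trdc was not tested. At 4000 UMIs a Trdc or reporter UMI was found in 27.1% of γδint barcodes (25.8 to 28.4) and 19.3% of γδ− barcodes (18.3 to 20.3), and in 0 of 12 and 0 of 34 B barcodes with few T markers. Tcrg-C1 and Tcrg-C2, constant genes of the TCR γ chain, had -0.40 (-0.42 to -0.37) and -0.42 (-0.44 to -0.40), and Tcrg-C4 -0.05 (-0.07 to -0.02). Trbc1 and Trbc2 together had 0.20 (0.19 to 0.22). None of the 7 tested constant genes was called. Trac, the TCR α constant gene, was under the CPM limit with 19 and 10 UMIs, a log2 ratio of 1.35 (0.18 to 2.62). Variable segments of the δ locus had 131 and 200 UMIs (-0.18, -0.51 to 0.14) and those of the α locus 89 and 130 (-0.12, -0.52 to 0.28), while those of the γ locus were at 63.8 and 125 CPM (-0.97, -1.04 to -0.90). The γ segments had 1 and 1 UMIs in B barcodes with few T markers, so the part of the difference between libraries in their ratio was not tested.

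Sox13, a factor of γδ effector differentiation, was at 10.3 and 18.8 CPM (-0.86, -1.04 to -0.69), and Gzma, granzyme A, at 586 and 302 CPM. None of the 7 tested effector genes was called, but this count turned with the processing. Without the length trend Gzma had 1.06 and Sox13 -1.05, and Sox13 was past 2-fold with TMM and with DESeq2 size factors. Gzma had 1.10 in cycling barcodes.

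CD3 and proximal signalling genes were not called in either direction, 0 of 27, beside 4.43% higher and 3.39% lower over all tested genes. A count of 0 or 1 in this or another short list, above or below, lies near these shares and is no result about the list. Their ends were Zap70, the kinase that binds the CD3 chains, at 32.9 and 17.1 CPM (0.95, 0.82 to 1.07), and Cd3d, a CD3 chain, at 1193 and 2375 CPM (-0.99, -1.01 to -0.98). Cd3d lay just inside the limit and was past 2-fold with TMM, with DESeq2 size factors, with totals without ribosomal-protein and mitochondrial genes and, at -1.33, without the length trend, so the count of 0 turned to at least 1 there. Zap70 had 0.94 in non-cycling and 1.10 in cycling barcodes. Cd28, a co-stimulatory receptor, had 0.72 (0.63 to 0.80) and Lef1, a TCF family factor, 0.73 (0.69 to 0.76), with 0.85 and 0.89 in non-cycling and 0.94 and 1.48 (1.36 to 1.61) in cycling barcodes. Ptcra, the pre-TCR α chain, was at 891 and 716 CPM and Dntt, the template-free DNA polymerase of V(D)J joining, at 2461 and 1915 CPM, and 0 of 12 recombination and pre-TCR genes were called.

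Capg and Plac8 were lower in γδint and were not set apart with either set of B barcodes. Capg (chr6:72544391-72562983, plus strand), an actin-capping protein, was at 25.6 CPM (24.0 to 27.3) in γδint and 85.6 CPM (83.0 to 88.2) in γδ−, a log2 ratio of -1.74 (-1.84 to -1.64), against 0.82 in the B barcodes with few T markers. Plac8 (chr5:100553725-100572245, minus strand), a small cysteine-rich protein, was at 251 CPM (246 to 256) and 663 CPM (656 to 670), a ratio of -1.40 (-1.44 to -1.37) with -0.08 in these B barcodes and -0.49 in all B barcodes (280 and 856 UMIs), just inside the limit for setting apart. In non-cycling barcodes the ratios were -1.63 and -1.41, and in cycling barcodes -0.99 (-1.26 to -0.72) and -1.33. Plac8 was at 880 CPM in WT DN3a but also at 741 CPM in WT DN3b γδ+ cells. At 4000 UMIs a Capg UMI was found in 10.2% (9.36 to 11.2) of γδint and 26.9% (25.8 to 28.0) of γδ− barcodes. Igkc, the immunoglobulin κ constant gene of B cells, was also lower, at 4.32 and 11.4 CPM in thymocyte barcodes against a B ratio of 0.08, and the part of free B cell RNA in it was not tested.

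Cd59b, a complement inhibitor, Insl5, an insulin-like peptide, and Erg, an ETS factor of early progenitors, had too few UMIs in either set of B barcodes to be measured. Cd59b was at 3.19 and 17.6 CPM (-2.47, -2.76 to -2.19), Insl5 at 4.83 and 18.2 CPM (-1.91, -2.15 to -1.68) and Erg at 8.96 and 20.1 CPM (-1.17, -1.35 to -0.99). Cd59b and Insl5 have longest transcripts of 796 and 695 bases, and their ratios were -2.01 and -1.25 after the length trend of the B barcodes was taken out. The Notch receptors and targets moved less. Notch1 was at 502 and 538 CPM, Dtx1 at 167 and 255 CPM, Hes1 at 274 and 351 CPM and Il2ra, which encodes the sort marker CD25, at 622 and 858 CPM. Of 17 tested DN3 and Notch genes 1, Erg, was called, and 6 were above 0. Erg had -0.82 (-1.12 to -0.53) in non-cycling and -1.51 (-1.95 to -1.06) in cycling barcodes, so that 0 of the 17 were called in non-cycling barcodes.

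These genes were set beside the WT step from DN3a to DN3b γδ−, which shares no library with the Lat-KO comparison. The WT ratios were not set against the B cells of the WT libraries, which differed too. Their B barcodes with few T markers held 799 Gm42418 UMIs in WT DN3b γδ− and 3569 in WT DN3a, and 179 and 377 of mt-Nd3. Of the 413 higher genes 82 were in the cycle lists, and the part of the cell cycle in the shares below was not tested. Of the 320 higher genes that were not set apart with the B barcodes of few T markers, 267 (83.4%) were at least 2-fold higher in WT DN3b γδ− than in WT DN3a and 2 were lower. Of these 320 genes 283 could not be measured in those B barcodes, and of the 37 that were measured and not set apart 23 were higher in the WT step and 0 lower. Over all 9331 tested genes with a WT ratio the shares were 8.60% higher and 17.9% lower. Over all 413 higher genes 326 (78.9%) were higher in the WT step and 6 lower, and over all 316 lower genes 90 (28.5%) were lower and 7 higher. Of the 121 lower genes that were not set apart 75 (62.0%) were at least 2-fold lower in the WT step and 0 higher, and of these 121 only 17 could be measured in B, 13 of them lower in the WT step. For genes called in non-cycling barcodes and likewise not set apart, 83 of 112 higher and 103 of 298 lower ones, 51 of the 83 higher ones were higher (61.4%) and 10 lower, and 55 of the 103 were lower (53.4%) and 3 higher. Of these, 80 of the 83 and 89 of the 103 could not be measured in B. This choice of genes and of the WT step was made after the values were seen.

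**Figure D5:**
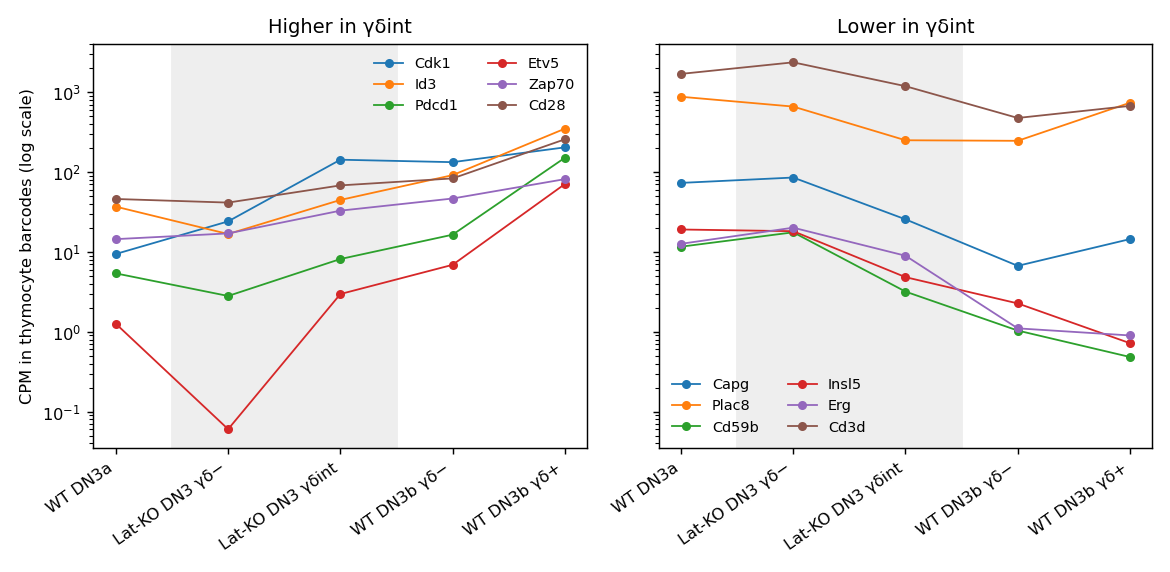
Points give the CPM of 12 named genes on a log axis in thymocyte barcodes of 5 libraries, with the Lat-KO libraries shaded and lines only joining points of a gene. In γδint the genes on the left are higher than in γδ− and those on the right are lower, and for Capg, Cd59b, Insl5 and Erg the γδint value lies between those of γδ− and WT DN3b γδ−.

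For several genes the γδint level lay between the WT stages. Capg was at 73.3 CPM in WT DN3a and 6.70 CPM in WT DN3b γδ−, with γδint at 25.6 CPM. Insl5 was at 19.1 and 2.27 CPM with γδint at 4.83 CPM, and Cd59b at 11.6 and 1.04 CPM with γδint at 3.19 CPM. The γδ− values of these genes, at 85.6, 18.2 and 17.6 CPM, lay close to or above those of WT DN3a. Cdk1 was at 9.44 CPM in WT DN3a and 133 CPM in WT DN3b γδ−, and γδint reached 143 CPM. Other cycle genes varied against WT DN3b γδ−. Cdc7 was at 46.1 CPM in γδint and 40.6 CPM in WT DN3b γδ−. Top2a, at 336 and 733 CPM, Rrm2, at 174 and 270 CPM, and Kif11, at 69.2 and 109 CPM, stayed below it.

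Among genes of the non-cycling contrast, Phlda1 was also higher in the WT step, at 1.49 on the log2 scale, and Angpt2 was not, at -0.11. Gm266, an uncharacterised gene on chromosome 12, was at 17.6 CPM (16.3 to 19.0) in γδint and 4.13 CPM (3.59 to 4.74) in γδ−, with 2.54 (2.25 to 2.84) in non-cycling barcodes. In the WT thymocyte sums Gm266 stood at 0.00 to 0.06 CPM. Its UMIs lay in 286 of the 4928 γδint barcodes and in 123 of the 6298 γδ− barcodes. Phlda1, a pleckstrin homology protein induced by growth signals, had 1.65 (1.42 to 1.89), and Angpt2, an angiopoietin, 1.70 (1.44 to 1.97), with 1.97 and 1.66 in non-cycling barcodes. None of these 3 could be measured in either set of B barcodes. Phlda1 and Angpt2 were among 13 higher genes called in all thymocytes, in non-cycling and in cycling barcodes without being set apart with the B barcodes of few T markers, beside Endog, a mitochondrial nuclease, and Mtx2.

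Metabolic genes differed by less than the cycle genes. Of 15 tested glycolysis genes 2 were at least 2-fold higher, Pfkp and Pgam1, and 0 lower, with a median of 0.63. Over all tested genes 4.43% were higher. In non-cycling barcodes 0 of 14 tested glycolysis genes were called, and in cycling barcodes 0 of 14. Pfkp, a phosphofructokinase, was at 20.9 and 7.62 CPM (1.45, 1.28 to 1.64) with 0.38 (-0.72 to 1.43) in B barcodes with few T markers. It was set apart under the rule, at 0.57 in all B barcodes, and had 0.94 (0.58 to 1.29) in non-cycling barcodes. Ldha, lactate dehydrogenase, was at 476 and 286 CPM with a B ratio of 0.50 beside 0.73. Slc7a5, an amino acid transporter, had 0.79 (0.64 to 0.94), and 0 of 10 growth and transport genes were called. Il7r, the IL-7 receptor, was at 59.7 and 116 CPM (-0.96, -1.03 to -0.89), and 0 of 17 FoxO and quiescence genes were called. Il7r was past 2-fold with TMM, with DESeq2 size factors and, at -1.16, without the length trend. Of 11 survival and death genes 1 was higher, Bid, a BH3-only protein at 33.6 and 15.3 CPM, and it was set apart. Of 11 p53 targets 1 was higher, Aen, an exonuclease at 52.5 and 26.2 CPM. Its log2 ratio of 1.002 fell under the limit with the other scalings, without the length trend (0.87) and in non-cycling barcodes (0.98). It was set apart under the rule (B 0.84) but not with B barcodes of few T markers (0.21, -1.23 to 1.52). Of 15 handling stress genes 1 was higher, the chaperone Hsp90aa1, at 1.08 beside a B ratio of 1.02.

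Co-receptor transcripts were rare in both libraries. Cd8b1 had 89 UMIs in γδint and 7 in γδ− (2.40 and 0.140 CPM), a log2 ratio of 4.10 (2.99 to 5.45), and Cd8a 29 and 1. The 89 Cd8b1 UMIs lay in 58 barcodes, and 22 of the 29 Cd8a UMIs lay in 10. Cd4 had 24 and 27 UMIs. Both groups were sorted as DN3 cells after staining for CD4 and CD8α, though the sort markers given for γδint name neither, and the part of the gates in these counts was not tested.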

How the data were processed

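The authors deposited UMI counts per gene and barcode (10x 3′ v3) for cells called by Cell Ranger (the headers of the files name 4.0.0, the submitters' processing notes 5.0.1), aligned to mm10 with an edited Trdc added as a feature. The counts were neither scaled nor corrected for free RNA, and each file lists 32286 features.

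UMIs of the barcodes passing the limits were summed per gene and library and divided by the total to give CPM. A count of 0 entered a ratio as 3 counts, and a gene at or under 3 counts in both libraries had no ratio. With 1 library per side no test was made, and a call is a 2-fold difference at a mean of at least 5 CPM. Barcodes with 2 to 4 UMIs of the B cell genes were in neither class, 978 in γδint and 1329 in γδ−. scrublet marked 0 and 1 doublets by its own threshold, which is a failed call, so doublets were kept and an alternative left out the 8% with the highest scores. Longest transcripts and positions came from GENCODE vM21, and 9326 of the 9332 tested genes had a length. Lowess curves had a span of 0.3. Python 3.11, scipy and scanpy 1.11.5 were used, with edgeR 4.0.16 and DESeq2 1.42.0 for scaling alternatives only. The ratio and call steps were checked on simulated counts.

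Members, lists and the rule for named genes were chosen with earlier results of these data known. The rule named the constant genes, the ends of each list with the members the study names, the 10 highest and 10 lowest called genes among those measured in B barcodes and not set apart and likewise among those not measured there, the 5 highest and 5 lowest set apart, and by the same rule the 10 highest and 10 lowest in non-cycling barcodes. Any other gene given with values, such as Mki67, Pcna, Mcm5, Chek1 and Ldha, was taken from the lists after values were seen, and so were the reading by B barcodes with few T markers as the lead for the set-apart genes and the WT comparison.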

Additional observations from a re-analysis of the deposited data

Results flagged for a closer look

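Of the called genes measurable in B barcodes with at most 2 T marker UMIs, 3 moved at least 2-fold the other way there. The difference between thymocytes and B cells was not tested. Mtx2, a mitochondrial outer membrane protein, had a log2 ratio of 1.31 in thymocytes and -1.19 (-3.19 to 0.38) in B barcodes, from 4 and 21 UMIs. Cdc25b, a phosphatase that activates CDK1, had 1.03 and -1.08 (-2.39 to 0.04), from 8 and 39 UMIs. Gm4632 had -1.59 and 1.10 (-0.11 to 2.30), from 13 and 14 UMIs. Each B interval spans 0. In all B barcodes Gm4632 moved as in thymocytes, at -1.48 (110 and 667 UMIs), Mtx2 had 0.41 (22 and 36 UMIs) and Cdc25b -0.03 (31 and 69 UMIs). Capg, at -1.74 in thymocytes and 0.82 in B barcodes, came close to this limit.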

How the results depend on the processing

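Counts of higher genes depended on scaling, since the median ratio of 0.18 moved to 0.021 with TMM, 0.031 with DESeq2 size factors and -0.024 with totals without ribosomal-protein and mitochondrial genes. In that order the higher genes numbered 268, 273 and 251, those set apart 123, 130 and 116, the non-cycling higher genes 36, 38 and 43, and the Trdc ratio was 0.39, 0.40 and 0.34. Higher genes made up 56.6% of calls as reported and 39.9%, 40.8% and 36.7% under these scalings. Taking out the length trend of the B barcodes gave 260 higher genes, 113 set apart, 55 non-cycling, a Trdc ratio of 0.38 and a median of 0.0071, and that of B barcodes with few T markers, chosen after seeing the data, 237, 102, 55, 0.23 and -0.12. With a mean of at least 20 CPM 270 genes were higher and 56 in non-cycling barcodes. Without a CPM limit 1149 were higher and 1062 lower, 900 and 751 in non-cycling barcodes, with a median of 0.13. Of the higher genes 93 were set apart with B barcodes of at most 2 T marker UMIs and 138 at a B change of at least 1, and with both, chosen after seeing the data, 37 higher and 172 lower. The study's barcode limits, the strict limits, leaving out high doublet scores, thinning, and 0 or 1 cycle UMIs kept each of these counts within 1.5-fold. Among named genes mt-Nd3, at -1.21, became 0.60 and 0.81 without the length trends, and Egr2, at 1.17, became -0.77 in non-cycling barcodes, from few UMIs. The causes were not tested. No paired analysis was possible because the labels carry no replicate numbers and each group is 1 library, so the spread between mice is unknown. Depth limits genes such as Etv5, Cd8a and Egr2, and the B barcodes with few T markers measure few genes.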

Other observations

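Of 20 replication-dependent histone genes tested in all thymocyte barcodes 1 was higher and 2 lower, with a median of -0.12 and a log2 ratio of -0.34 (-0.36 to -0.32) for the sum. In cycling barcodes they summed to 878 CPM in γδint and 1889 CPM in γδ−, a log2 ratio of -1.11 (-1.14 to -1.07). There 14 of 32 tested members were at least 2-fold lower and 0 higher, beside 3.55% and 1.01% of all genes tested in cycling barcodes. Their messages are short and mostly lack a poly(A) tail. In B barcodes with few T markers their sum had -0.13 (-0.54 to 0.27), from 74 and 187 UMIs. Hist1h1b, a linker histone, had 0.65 (0.54 to 0.76) in cycling barcodes, and Hist1h2ap, a core histone, -2.94. Hist1h2ap gave 1695 of the 13383 UMIs in γδint and 4772 of the 10603 in γδ−, and without it, chosen after seeing the data, the sum had -0.44 (-0.48 to -0.39).

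Variable segments of the TCR β locus summed to 3.89 and 5.92 CPM, -0.61 (-0.90 to -0.31), with 0 UMIs in B barcodes with few T markers. Interferon-stimulated genes had a median of -0.40 over 18 tested members, with 0 higher and 2 lower, and a median of -0.81 in B barcodes with few T markers. Ifi27l2a, the lowest of them, had -2.04 (-2.31 to -1.78) in thymocytes and -2.27 in these B barcodes.

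Xist, the RNA of the inactive X chromosome, had -1.16 (-1.18 to -1.13) in thymocytes and -0.89 (-1.17 to -0.63) in B barcodes with few T markers. The Y-linked Uty had -0.03 (-0.16 to 0.11) and Kdm5d 0.02 (-0.13 to 0.17) in thymocytes, and neither had a UMI in these B barcodes.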
